A study of Mus musculus with 8 samples.

Results

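The 10 genes described here mark arterial or venous identity and were measured in brain endothelial cells that were heterozygous or knockout for Flvcr2, a gene for a membrane transporter. They were chosen by gene symbol, with earlier results of these data known. The arterial genes were Efnb2, Gja1, Gja4, Gja5, Sox17, Bmx and Sema3g, and the venous genes Ephb4, Nr2f2 and Vwf. All 10 were among the 24421 gene rows of the count table, 7 arterial and 3 venous, and all 10 were among the 13540 genes that passed the filter on low counts. The cells came from the brains of C57Bl6 mouse embryos at E14.5 (embryonic day), 4 libraries from heterozygous (control) and 4 from knockout embryos. Every cell, control or knockout, carried at least 1 mutant Flvcr2 allele, because GFP is made from the mutation and cells were sorted for GFP together with CD31, an endothelial surface protein. No wild-type group was analysed. Each library was made from 2000 to 5000 cells. Whether libraries of a genotype stem from separate embryos is not stated in the labels, so the p-values cover only the spread among these libraries, which may be technical.

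Arteries and veins are lined by endothelial cells of different identity. Arterial identity is set up by VEGF, Notch signalling and SoxF transcription factors, and is marked by the membrane ligand ephrin-B2 and by connexins, which join neighbouring cells through gap junctions. Venous cells carry EphB4, the receptor of ephrin-B2, and the nuclear receptor COUP-TFII (Nr2f2), which represses Notch signalling. Most cells of a growing brain vessel bed are capillary cells between both identities.

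The libraries held 9.11 to 35.9 M counts each. Flvcr2, listed as Mfsd7c, was at 276 to 578 CPM (counts per M counts, with library sizes scaled by TMM, edgeR's trimmed mean of M-values) in heterozygous and at 227 to 393 CPM in knockout libraries. Reads of a mutant transcript would be counted under the same symbol, so this does not check the labels. The 8 endothelial markers (Pecam1, Cdh5, Kdr and others) summed to 5866 to 10145 CPM in heterozygous, against 7268 to 9926 CPM in knockout libraries, and 0 of 8 was called by edgeR (3 at an unadjusted p under 0.05, 2 called by DESeq2). Transcripts of other cell types were also present. Called lower in knockout by edgeR were 8 of 18 tested neuron, 3 of 11 radial glia and 2 of 10 pericyte and smooth muscle markers. So were 1 of 12 microglia, 3 of 5 erythroid and 1 of 10 fibroblast markers, and 0 markers of these lists were called higher. Over all 13540 tested genes 4.02% were called lower, and the shares were not compared by a test. The neuron markers summed to 370 to 2262 CPM in heterozygous, against 118 to 377 CPM in knockout libraries, the pericyte and smooth muscle markers to 371 to 512 and 40.7 to 584 CPM, the microglia markers to 533 to 1540 and 138 to 909 CPM, and the erythroid markers to 254 to 629 and 25.3 to 58.2 CPM. No tested marker of these lists was at 0 in every library. Heterozygous 2 and knockout 1 stood apart in the X-linked RNA Xist, with 0 and 1 counts against 229 to 1135 in the other 6, so results are also given without this pair. In whole-population RNA, fewer cells of a type and less RNA per cell cannot be told apart.

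In knockout cells 3 of the 10 genes were lower and 0 were higher (edgeR quasi-likelihood test, adjusted p under 0.05 over all tested genes). The arterial connexin genes Gja4 and Gja5 and the venous factor gene Nr2f2 fell. Over all 13540 genes, 9.55% were called, 5.53% higher and 4.02% lower in knockout (749 and 544 genes, or 539 and 725 when scaled by total counts alone). Among the members not called, 1 was higher at an unadjusted p under 0.05 (Vwf) and 1 lower (Sema3g). DESeq2 called 5 of the 10, adding Sema3g as lower and Vwf as higher. It also called more of all genes, 16.2% of the 14795 it tested. Without heterozygous 2 and knockout 1 the edgeR count was 0, with 4 genes at an unadjusted p under 0.05, while 2.19% of all genes were still called. The median log2 fold change was -0.66 for the 7 arterial genes, against -0.03 for all tested genes. That median is the value of Bmx, a gene of few counts, and without heterozygous 2 it was -0.14, the value of Efnb2. The 3 venous genes went in both directions, and their median of -0.19 is the value of Ephb4. The groups did not overlap for 3 of the 10 genes, against 17.6% of all tested genes. Because the members were chosen with earlier results known, these values do not test whether the list differs from all genes.

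**Figure D1:**
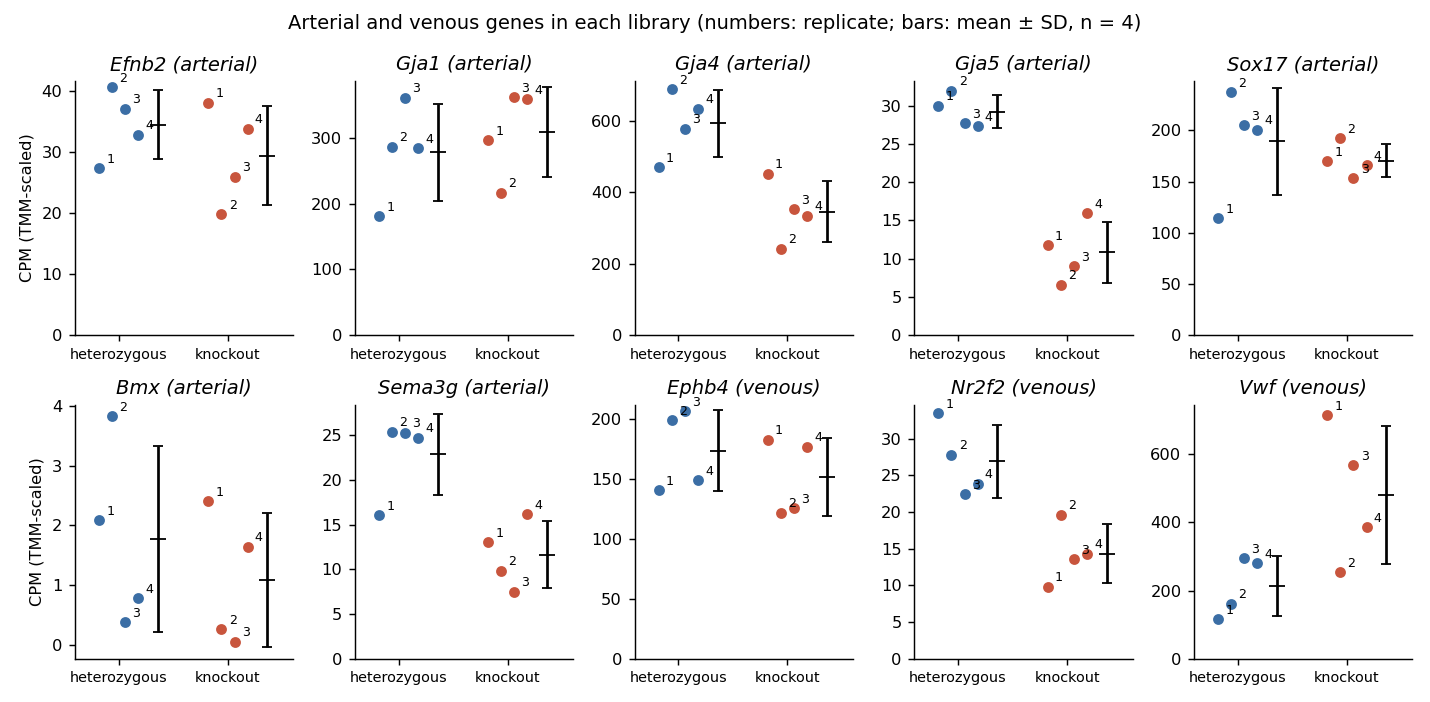
CPM (y axis, TMM-scaled) of the 10 genes in each library, heterozygous in blue and knockout in red, with the replicate number beside each point and mean ± SD (n = 4) as bars. The groups separate for Gja4, Gja5 and Nr2f2 and overlap for the other 7 genes.

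Because Gja4 and Gja5 fell together and Nr2f2 fell with them, the 250 bases upstream of their RefSeq transcription starts (GRCm38.p6) are shown, each read 5′ to 3′ on the strand of the gene. The windows are chr4:127314040-127314289 (minus strand) for Gja4, chr3:97032152-97032401 (plus strand) for Gja5 and chr7:70366747-70366996 (minus strand) for Nr2f2. Capitals mark a match to a searched motif.
Gja4: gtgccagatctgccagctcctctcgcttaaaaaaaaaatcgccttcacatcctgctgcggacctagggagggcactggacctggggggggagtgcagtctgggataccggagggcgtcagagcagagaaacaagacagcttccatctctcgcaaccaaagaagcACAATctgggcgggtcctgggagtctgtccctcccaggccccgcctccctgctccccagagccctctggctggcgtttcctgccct
Gja5: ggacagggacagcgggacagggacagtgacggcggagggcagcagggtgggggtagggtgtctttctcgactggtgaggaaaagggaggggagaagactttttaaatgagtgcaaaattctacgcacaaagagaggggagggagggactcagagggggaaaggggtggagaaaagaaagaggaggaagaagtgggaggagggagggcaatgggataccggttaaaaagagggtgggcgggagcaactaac
Nr2f2: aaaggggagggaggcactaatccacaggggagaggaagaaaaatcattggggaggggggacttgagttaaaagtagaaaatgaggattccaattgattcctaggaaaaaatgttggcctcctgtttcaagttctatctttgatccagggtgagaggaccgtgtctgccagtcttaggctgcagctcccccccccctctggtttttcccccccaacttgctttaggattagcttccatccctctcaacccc
The motifs, searched on both strands, were the SOX core ACAAT, the RBPJ (Notch) site GTGGGAA, the nuclear receptor half-site AGGTCA and the TATA box TATAAA. The only match in these 3 windows was ACAAT in Gja4, starting 86 bases upstream of the start. Members that were not called also held matches. Bmx held the SOX core at 32 and 52 bases upstream, and Efnb2 the TATA box at 30 bases upstream. The windows of Gja1, Sema3g and Ephb4 held no match. ACAAT occurs in 27.7% of 32851 RefSeq windows of this length, GTGGGAA in 5.42%, AGGTCA in 14.0% and TATAAA in 12.4%. The windows of Gja4, Gja5 and Nr2f2 held 9, 7 and 1 CG dinucleotides, against a median of 6. The windows show no shared searched motif, and a match or its lack is a description of these letters alone.

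The ephrin and Eph pair did not pass the test in either gene. Efnb2 (Entrez 13642, chromosome 8, 8617235 to 8661242, minus strand) encodes the arterial ligand ephrin-B2. In replicate order the heterozygous libraries held 27.3, 40.6, 37.1 and 32.8 CPM, and the knockout libraries 38.1, 19.8, 26.0 and 33.8 CPM. Knockout 1 and 4 lay within the heterozygous range, and knockout 2 and 3 lay below it. The log2 fold change was -0.23 ± 0.23 (SE), with a 95% confidence interval from -0.74 to 0.29 (edgeR adjusted p = 0.586). Ephb4 (Entrez 13846, chromosome 5, 137350109 to 137374522, plus strand) encodes the venous receptor. Its levels were 141, 199, 206 and 149 CPM in heterozygous, against 183, 122, 126 and 177 CPM in knockout libraries. The ranges overlapped widely, and the log2 fold change was -0.19 ± 0.19 (interval -0.62 to 0.23, edgeR adjusted p = 0.575). The log2 ratio of Efnb2 to Ephb4 counts, which does not depend on scaling, was -2.33 ± 0.13 in heterozygous libraries, against -2.39 ± 0.17 in knockout ones (SD, n = 4), a difference of -0.06. The ranges of this ratio overlapped between the genotypes. Of the other 6 B-class ephrin and receptor genes 0 was called by edgeR (1 at an unadjusted p under 0.05, 0 by DESeq2). Efnb3, an ephrin ligand gene, was at 48.9 ± 16.8 and 83.4 ± 35.5 CPM, and Efnb1 at 25.4 ± 8.98 and 18.9 ± 6.03 CPM.

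Of the 3 arterial connexin genes 2 fell and the other did not pass the test. Gja5 (Entrez 14613, chromosome 3, 97032402 to 97053634, plus strand), a connexin gene used as a marker of arterial endothelium, had 30.0, 32.0, 27.7 and 27.3 CPM in heterozygous libraries 1 to 4, against 11.8, 6.62, 8.997 and 16.0 CPM in knockout libraries 1 to 4. The highest knockout library was well below the lowest heterozygous library. The means were 29.2 ± 2.17 and 10.8 ± 4.01 CPM, a 2.69-fold fall with a log2 fold change of -1.42 ± 0.28 (interval -2.03 to -0.82, edgeR adjusted p = 0.0115). This call held in all 8 fits that each left out 1 library, with log2 fold changes of -1.67 to -1.25. Without heterozygous 2 and knockout 1 the fold change was -1.41 and the call was lost (adjusted p = 0.0811).

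Gja4 (Entrez 14612, chromosome 4, 127311420 to 127314039, minus strand) is a connexin gene of arterial endothelium and of vascular smooth muscle. It had 471, 690, 578 and 634 CPM in heterozygous, against 452, 243, 353 and 335 CPM in knockout libraries. Knockout 1 and heterozygous 1 almost met, while the other libraries were far apart. The means were 593 ± 93.4 and 346 ± 85.9 CPM, a 1.72-fold fall (log2 fold change -0.78 ± 0.20, interval -1.21 to -0.35, edgeR adjusted p = 0.0333). The call was lost without heterozygous 2, 3 or 4 (adjusted p = 0.0870, 0.0653 and 0.0657) and without knockout 3 or 4 (0.0540 and 0.0863), with log2 fold changes of -0.92 to -0.64 over the 8 fits. With the pair heterozygous 2 and knockout 1 left out the fold change was -0.85 (adjusted p = 0.0723). The mean log2 CPM over pericyte and smooth muscle markers was 2.88 ± 0.21 in heterozygous, against 1.25 ± 0.90 in knockout libraries. The part of these cells in the level of Gja4 was not tested.

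Gja1 (Entrez 14609, chromosome 10, 56377300 to 56390419, plus strand) encodes the most widely expressed connexin, which is also found in radial glia, astrocytes and pericytes. Its levels were 181, 287, 362 and 285 CPM in heterozygous, against 297, 217, 362 and 359 CPM in knockout libraries. The ranges overlapped almost fully, with a log2 fold change of 0.15 ± 0.22 (interval -0.35 to 0.64, edgeR adjusted p = 0.727), and its direction turned to -0.0118 without heterozygous 1. Of the 11 radial glia markers 9 had negative log2 fold changes and 3 were called lower (Pax6, Slc1a3 and Lhx2), with a median of -1.93 and a mean log2 CPM over the list of 4.52 ± 0.70 in heterozygous, against 2.70 ± 0.95 in knockout libraries (SD, n = 4). Their summed level, 1322 to 1443 CPM in heterozygous, against 1320 to 1567 CPM in knockout libraries, was carried by Vim (868 ± 118 and 1059 ± 124 CPM) and Nes (206 ± 44.5 and 264 ± 36.7 CPM), the 2 markers with positive log2 fold changes, neither of them called. The part of radial glia in the level of Gja1 was not tested. Within libraries the log2 ratio of Gja4 to Gja1 counts was 1.38, 1.26, 0.68 and 1.16 in heterozygous, against 0.61, 0.16, -0.04 and -0.10 in knockout libraries. The log2 ratio of Gja5 to Gja1 was -3.21 ± 0.47 and -4.88 ± 0.38 (SD, n = 4 each). Neither ratio overlapped between the genotypes, and neither depends on the scaling of the libraries. The log2 ratio of Gja5 to Gja4 was -4.33 ± 0.25 and -5.04 ± 0.43, and here knockout 4 (-4.39) lay within the heterozygous range.

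Of the other 11 connexin genes 6 were tested and 0 called by edgeR (1 at an unadjusted p under 0.05, 1 by DESeq2). The gene with that unadjusted p was Gjc1, a connexin gene of endothelium and mural cells, at 69.2 ± 14.2 and 39.6 ± 11.8 CPM (log2 fold change -0.81 ± 0.24, edgeR adjusted p = 0.0572). The next most abundant, Gjb6, was at 9.17 ± 4.97 and 3.66 ± 5.94 CPM.

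The arterial transcription factor gene Sox17 (Entrez 20671, chromosome 1, 4490928 to 4497426, minus strand) acts upstream of Notch in arterial cells. It had 115, 237, 205 and 201 CPM in heterozygous, against 170, 193, 154 and 166 CPM in knockout libraries. All knockout libraries lay within the heterozygous range, which heterozygous 1 widened at its low end. The log2 fold change was -0.15 ± 0.20 (interval -0.60 to 0.30, edgeR adjusted p = 0.689). Among its SoxF relatives, Sox18 was 1.74-fold lower, at 557 ± 144 and 321 ± 31.0 CPM (edgeR adjusted p = 0.0322), although heterozygous 1 (342 CPM) lay below knockout 2 (366 CPM). With each library left out in turn its call held in 2 of 8 fits, where adjusted p reached 0.0902. Sox7, chosen after its values were seen, was at 268 ± 54.4 and 234 ± 33.8 CPM and was not called (edgeR adjusted p = 0.529). The difference between these relatives was not tested.

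Sema3g (Entrez 218877, chromosome 14, 31217873 to 31230352, plus strand) encodes a secreted semaphorin of arterial endothelium. It had 16.0, 25.4, 25.3 and 24.7 CPM in heterozygous, against 13.0, 9.84, 7.52 and 16.2 CPM in knockout libraries. Only heterozygous 1 and knockout 4 met, and the remaining libraries were apart. The log2 fold change of -0.97 ± 0.29 (interval -1.60 to -0.33) missed the threshold (edgeR adjusted p = 0.0597), whereas DESeq2 called it (adjusted p = 0.0119), as did edgeR when scaled by total counts alone (0.0366). Among the other class 3 semaphorin genes 4 of 6 were tested and 1 was called. Sema3f, a ligand gene of neuropilin and plexin receptors, was 5.14-fold higher in knockout, at 10.53 ± 2.0 and 54.1 ± 24.9 CPM (edgeR adjusted p = 0.00384) and kept its call whichever of the 8 libraries was left out. Sema3g and Sema3f thus had log2 fold changes of opposite sign, a difference that was not itself tested. Of 5 plexin genes 1 was called. Over all tested genes 9.55% were called, and with so few semaphorin and plexin genes the shares were not compared. Plxnd1, the endothelial plexin receptor gene, rose from 147 ± 37.4 to 319 ± 29.6 CPM (log2 fold change 1.12 ± 0.18, edgeR adjusted p = 0.00492).

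Bmx (Entrez 12169, chromosome X, 164192842 to 164258193, minus strand), a Tec family kinase gene of large arteries, had few counts. These were 22, 36, 9 and 14 in heterozygous, against 47, 3, 1 and 57 in knockout libraries, or 0.0569 to 3.82 CPM. Libraries of 1 genotype differed widely from each other. The ranges overlapped and the interval of the log2 fold change ran from -3.07 to 1.76 (edgeR adjusted p = 0.752). The sign of its fold change turned without heterozygous 2 (0.0499). Its relative Tec was at 21.1 ± 4.597 and 10.4 ± 5.21 CPM and Btk at 1.63 ± 1.48 and 1.84 ± 2.09 CPM; edgeR called 0 of these 2 genes (1 at an unadjusted p under 0.05, 1 by DESeq2).

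Among the venous genes, Nr2f2 (Entrez 11819, chromosome 7, 70351946 to 70366746, minus strand) was lower in knockout libraries. It had 33.4, 27.8, 22.4 and 23.9 CPM in heterozygous, against 9.81, 19.6, 13.6 and 14.3 CPM in knockout libraries. Heterozygous 3 (22.4 CPM) and knockout 2 (19.6 CPM) came nearest to each other, and the groups did not overlap. The means were 26.9 ± 4.93 and 14.3 ± 4.03 CPM, a 1.88-fold fall (log2 fold change -0.91 ± 0.26, interval -1.47 to -0.35) at the edge of the threshold (edgeR adjusted p = 0.0491). The call was lost without heterozygous 1, 2, 3 or 4 (adjusted p = 0.127, 0.0983, 0.0715 and 0.0754) and without knockout 1, 3 or 4 (0.137, 0.0917 and 0.112), and was kept without knockout 2 alone (0.0305). Its log2 fold change stayed between -1.09 and -0.75 over these 8 fits. Nr2f2 is also made by interneurons and mesenchymal cells. The neuron marker sums of 370 to 2262 CPM in heterozygous, against 118 to 377 CPM in knockout libraries moved the same way. With the mean over neuron and radial glia markers as a covariate, the log2 fold change of Nr2f2 was -1.08 ± 0.40. That fit hardly separates these markers from genotype, and the part of neuronal transcripts in the level of Nr2f2 was not tested. Its relative Nr2f1, a factor gene of neural progenitors and neurons, was 4.80-fold lower, at 13.7 ± 11.2 and 2.87 ± 1.34 CPM (edgeR adjusted p = 0.0353; called in 4 of 8 fits with 1 library left out). Nr2f6, likewise chosen after its values were seen, was at 132 ± 21.9 and 155 ± 30.8 CPM and was not called (edgeR adjusted p = 0.474). The log2 ratio of Sox17 to Nr2f2 counts was 2.78 ± 0.67 in heterozygous, against 3.61 ± 0.35 in knockout libraries, without overlap.

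Vwf (Entrez 22371, chromosome 6, 125552948 to 125686679, plus strand) encodes von Willebrand factor, a clotting protein stored in the Weibel-Palade bodies of endothelial cells and in platelets. It had 116, 162, 295 and 281 CPM in heterozygous, against 715, 253, 567 and 386 CPM in knockout libraries. Knockout 2 lay within the heterozygous range and the other 3 knockout libraries lay above it. The means were 214 ± 88.5 and 481 ± 203 CPM, with a log2 fold change of 1.17 ± 0.36 (interval 0.38 to 1.95) that missed the threshold (edgeR adjusted p = 0.0659). It passed without knockout 2 (adjusted p = 0.0331, log2 fold change 1.38) and in DESeq2 (0.00812). With each library left out in turn it was called in 1 of 8 fits, where adjusted p reached 0.168. Without heterozygous 2 and knockout 1 the log2 fold change was 0.81 (edgeR adjusted p = 0.305). Megakaryocyte and platelet markers summed to 35.0 to 141 CPM in heterozygous libraries and to 42.1, 65.6, 419 and 22.5 CPM in knockout libraries 1 to 4. Knockout 3, with the highest sum, had the second highest Vwf level (567 CPM), knockout 1 the highest (715 CPM), and knockout 4, with the lowest sum, 386 CPM. The part of platelet transcripts in the level of Vwf was not tested. Of 5 genes for other contents or release factors of Weibel-Palade bodies 1 was called, while 9.55% of all tested genes were called. Angpt2, an antagonist ligand gene of the Tie2 receptor, rose from 34.9 ± 13.7 to 651 ± 351 CPM (edgeR adjusted p = 8.45e-04).

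**Figure D2:**
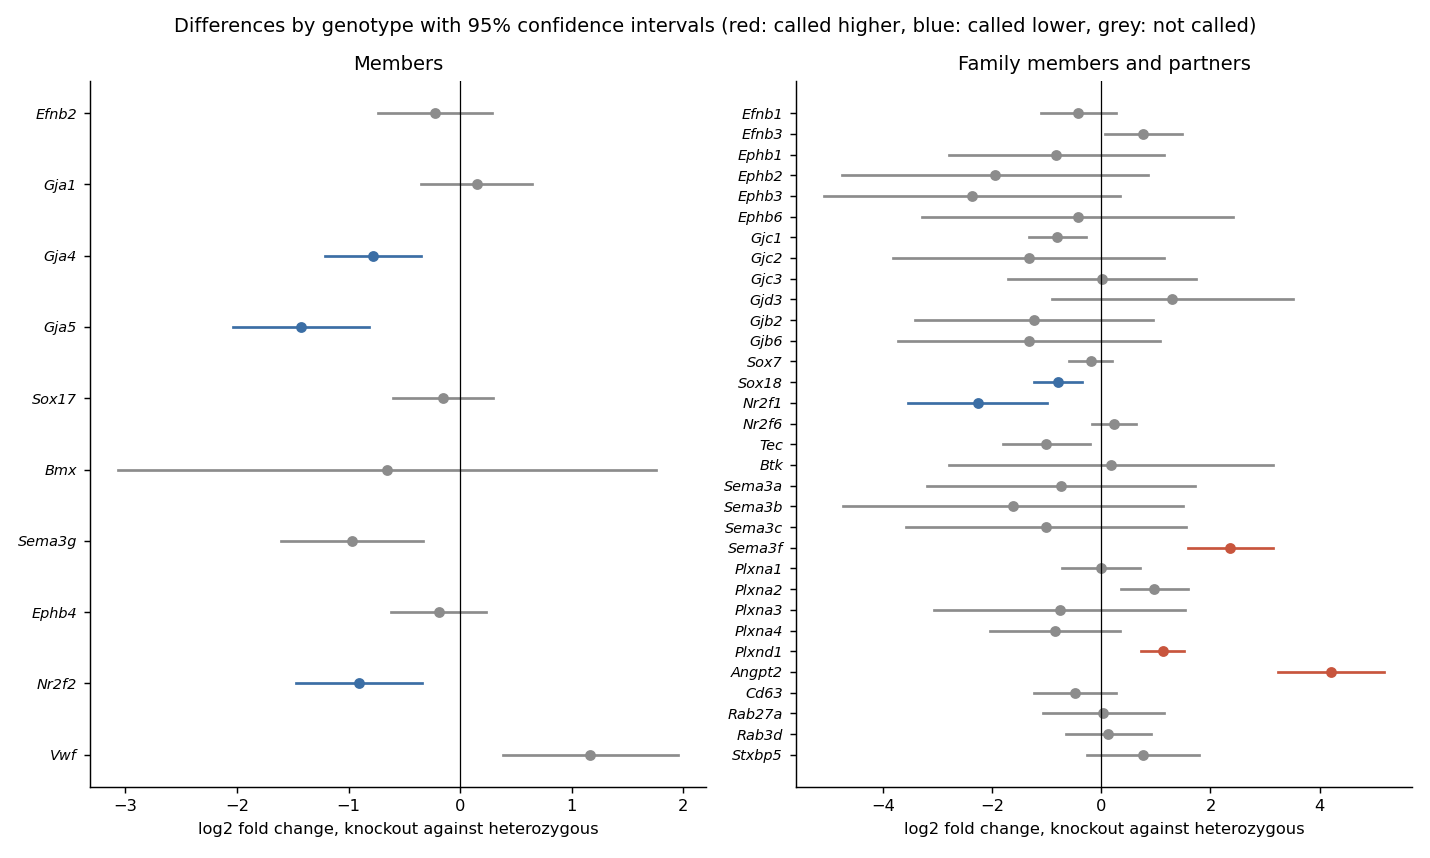
Log2 fold change (x axis, knockout against heterozygous) with 95% confidence intervals from edgeR for the 10 members (left) and for tested relatives and partners (right). Gja4, Gja5 and Nr2f2 have intervals below 0 and were called, while Sema3g (-1.60 to -0.33) and Vwf (0.38 to 1.95) exclude 0 but were not called after adjustment.

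Compared per kilobase of exon (union of GENCODE M21 exons), Gja4 had the highest level of the 10 genes in both genotypes, at 352 ± 55.4 CPM per kb in heterozygous and 205 ± 51.0 CPM per kb in knockout libraries. Sox17 (39.7 ± 11.01), Ephb4 (37.4 ± 7.28), Gja1 (27.2 ± 7.23) and Vwf (13.3 ± 5.51 CPM per kb) followed in heterozygous libraries. Each neighbour in that order from Sox17 to Vwf overlapped the next. Gja5 (5.09 ± 0.38), Sema3g (5.03 ± 1.001) and Efnb2 (5.03 ± 0.83) formed a lower level with overlapping ranges, with means above those of Nr2f2 (3.12 ± 0.57) and Bmx (0.57 ± 0.50 CPM per kb). In knockout libraries Vwf (29.9 ± 12.6) overlapped Gja1 (30.1 ± 6.67). Gja5 ranked 6 of 10 in heterozygous and 8 of 10 in knockout libraries, at 1.89 ± 0.70 CPM per kb, where it overlapped Nr2f2 (1.66 ± 0.47). These levels depend on the annotated exon lengths, which may differ from those the submitters counted on.

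The markers of endothelial cells gave another reference for the members. The log2 CPM of Gja5 less the mean of the 8 endothelial markers was -3.99 ± 0.33 in heterozygous libraries, against -5.55 ± 0.39 in knockout ones (SD, n = 4), without overlap. Gja4 (0.34 ± 0.19 and -0.53 ± 0.23) and Sema3g (-4.36 ± 0.14 and -5.43 ± 0.43) also separated on this scale. Nr2f2 (-4.12 ± 0.53 and -5.12 ± 0.56) and Vwf (-1.22 ± 0.53 and -0.13 ± 0.53) overlapped. Sema3g thus separated relative to endothelial transcripts but not in CPM, and Nr2f2 the reverse.

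Of 26 other arterial genes tested 1 rose and 2 fell, a share near the 9.55% called over all genes, with a median log2 fold change of 0.00, 13 values above and 13 below 0. Cxcl12, a chemokine gene of arterial endothelium and of stromal cells, dropped 1.88-fold, with means of 74.3 ± 13.9 and 39.6 ± 8.29 CPM (edgeR adjusted p = 0.0198). It was called in 6 of 8 fits with 1 library left out, and the part of stromal cells in its level was not tested. Ltbp4, a gene for a matrix protein that binds latent TGF-beta, fell from 47.9 ± 5.18 to 17.6 ± 11.3 CPM (edgeR adjusted p = 0.0497; 2 of 8 fits). Nrp1, a VEGF and semaphorin co-receptor gene, rose from 288 ± 67.0 to 498 ± 90.2 CPM (edgeR adjusted p = 0.0335; 4 of 8 fits). Scaling by total counts alone likewise ended its call. The Notch genes of the list were not called. Dll4, the arterial Notch ligand gene, was at 170 ± 46.8 and 248 ± 77.4 CPM (edgeR adjusted p = 0.205), and the Notch target gene Hey1 at 80.8 ± 17.1 and 95.7 ± 16.7 CPM (edgeR adjusted p = 0.460). These 2 genes were chosen after their values were seen.

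Of 17 other venous genes 13 were tested, 2 rose and 1 fell, with a median log2 fold change of 0.21. Over all tested genes 9.55% were called, and with so few genes in the list the shares were not compared. Emcn, a sialomucin gene of venous and capillary endothelium, rose 2.28-fold, with means of 281 ± 47.8 and 640 ± 98.0 CPM (edgeR adjusted p = 0.00321). Icam1, a leukocyte adhesion gene, rose 1.96-fold, with means of 106 ± 14.4 and 208 ± 44.7 CPM (edgeR adjusted p = 0.00832). Slc38a5, an amino acid transporter gene, fell from 3377 ± 1019 to 540 ± 103 CPM (edgeR adjusted p = 0.000516). All 3 kept their call whichever of the 8 libraries was left out, and Icam1 lost its call without heterozygous 2 and knockout 1. Selp, Sele, Bst1 and Lcn2 were too low to test. Aplnr, the apelin receptor gene of veins and chosen after its values were seen, was at 1474 ± 258 and 1130 ± 229 CPM and was not called (edgeR adjusted p = 0.212). Venous genes therefore included calls in both directions, as arterial genes did.

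**Figure D3:**
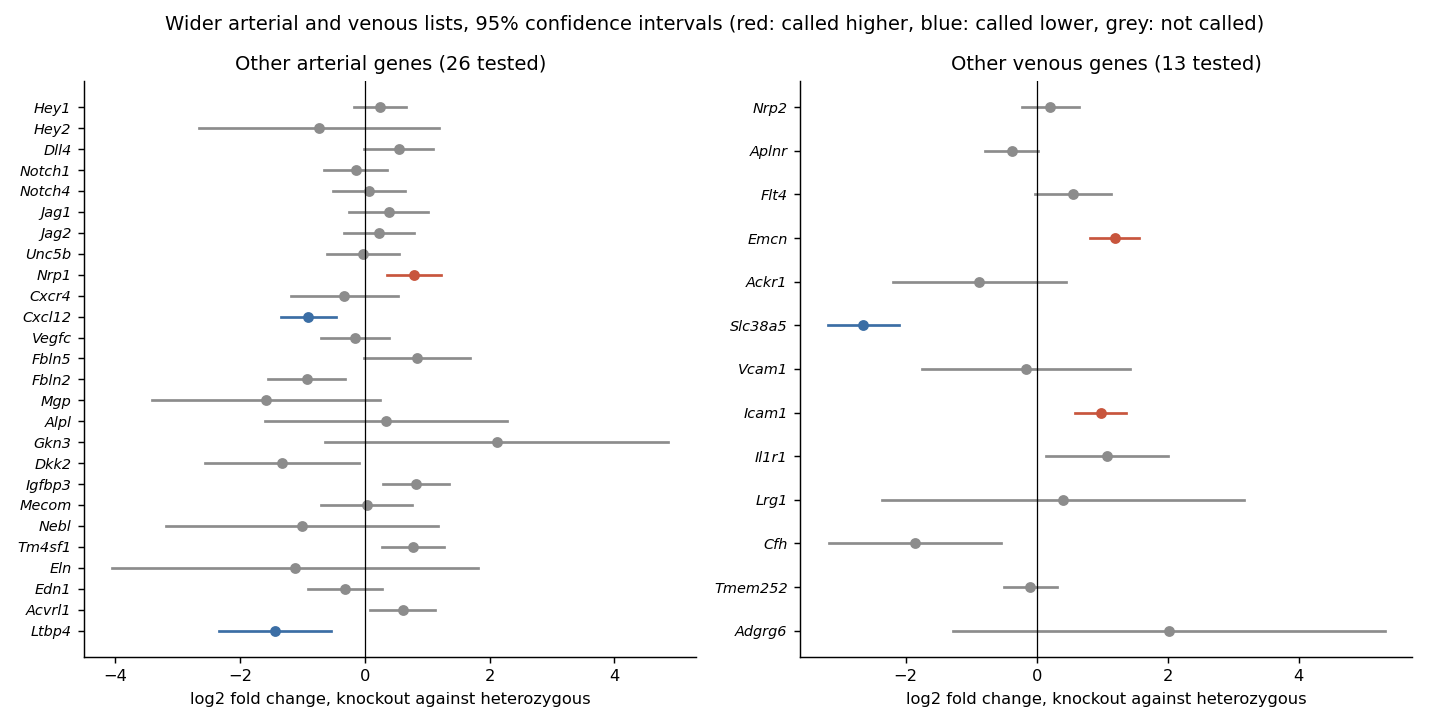
Log2 fold change (x axis, knockout against heterozygous) with 95% confidence intervals from edgeR for the other arterial (left, 26 tested) and other venous genes (right, 13 tested). Called genes lie on both sides of 0 in each panel, 1 higher and 2 lower among arterial and 2 higher and 1 lower among venous genes.

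The other-cell score, the mean log2 CPM over markers of neurons, radial glia, mural cells, microglia and red cells, ran from 3.83 to 4.74 in heterozygous libraries, above the knockout range of 1.62 to 3.04. Genotype and this score did not overlap, so they cannot be told apart by these libraries. With the score as a covariate 0 members were called (2 at an unadjusted p under 0.05), as were 8 of all 13540 genes. These 2 members were Sema3g, with a log2 fold change of -2.09 ± 0.57 in that fit (edgeR unadjusted p = 0.00447, adjusted p = 0.392), and Gja5, with -1.74 ± 0.65 (0.0231 and 0.537). The log2 fold change was -0.68 ± 0.46 for Gja4, -1.06 ± 0.61 for Nr2f2 and 1.61 ± 0.77 for Vwf. The neuronal score, the mean over neuron and radial glia markers alone, ran from 3.58 to 5.74 in heterozygous and from 1.37 to 3.75 in knockout libraries, where knockout 3 lay above heterozygous 2. With that score as a covariate 0 members were called (6 at an unadjusted p under 0.05). Their log2 fold changes were -1.40 ± 0.43 for Gja5, -0.74 ± 0.29 for Gja4 and -1.08 ± 0.40 for Nr2f2. For Sema3g it was -1.40 ± 0.42, for Vwf 1.52 ± 0.50 and for Sox17 -0.60 ± 0.24 (edgeR unadjusted p = 0.0349, adjusted p = 0.320). Without a covariate Gja5 was at -1.42 ± 0.28 and Gja4 at -0.78 ± 0.20. Genotype and the neuronal score overlapped only through knockout 3 and heterozygous 2, so this fit hardly separates them, and the part of neuronal transcripts was not tested. Sox17 moved away from its value of -0.15 ± 0.20 without a covariate, and was at -0.88 ± 0.40 with the other-cell score. Within the knockout libraries, knockout 2 had the lowest Gja4 and Gja5 and the highest Nr2f2. Its other-cell score was 1.71, and its neuronal score of 1.37 was the lowest of these libraries. Knockout 4 had the highest Gja5, the lowest other-cell score (1.62) and a neuronal score of 2.11.

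**Figure D4:**
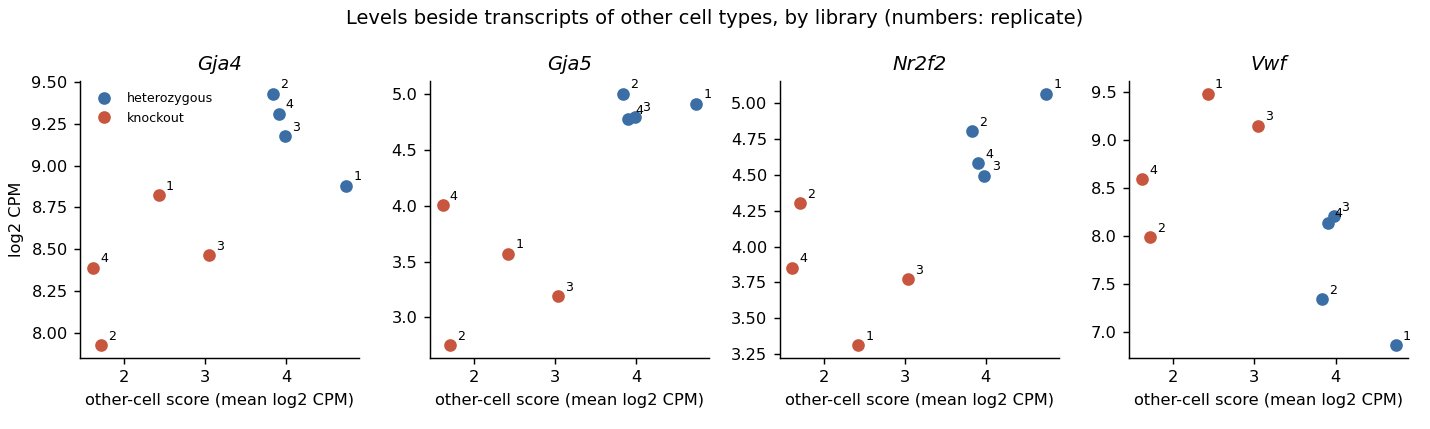
Log2 CPM (y axis) of Gja4, Gja5, Nr2f2 and Vwf against the other-cell score (x axis) in each library, heterozygous in blue and knockout in red, with replicate numbers. The scores run from 1.62 to 3.04 in knockout and from 3.83 to 4.74 in heterozygous libraries and do not overlap.

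**Figure D5:**
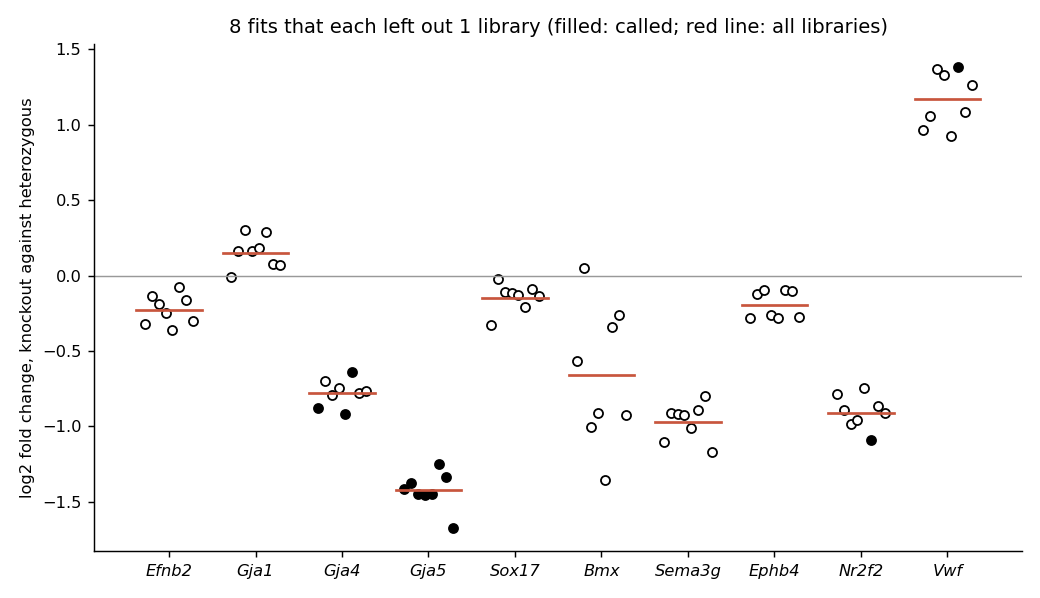
Log2 fold change (y axis) of each member in the 8 edgeR fits that each left out 1 library, filled where called, with a red line for the fit of all 8 libraries. Gja5 was called in 8, Gja4 in 3, Nr2f2 in 1 and Vwf in 1 of the 8 fits, and the sign turned in 1 fit each for Gja1 and Bmx.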

How the data were processed

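RNA of sorted brain endothelial cells was sequenced as single-end reads of 50 bases. The authors deposited 1 table of raw counts, with a row per gene symbol. TopHat2 0.7 and Cufflinks 2.2.1, with the build mm10, are named in the submitters' processing notes. Neither the counting program nor its handling of strand and of shared reads is given in the sources used here. Annotated exons of other genes on the opposite strand overlap those of Gja5 (165 bases), Sox17 (804), Ephb4 (33) and Nr2f2 (643), so these values may hold reads of both strands.

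Genes were kept with filterByExpr (minimum count 10, minimum total 15), which left 13540 genes with 99.9% of the counts, and tested with edgeR 4.0.16 in R 4.3.3 (TMM, robust quasi-likelihood F-test, no covariate, Benjamini-Hochberg over all tested genes, threshold 0.05). The SE was the log2 fold change divided by the root of F. Log2 CPM used a prior count of 2. Groups came from the sample titles. Named genes were all members and, per wider or family list, the called genes (up to 4 by p) or else the 2 most abundant. Sox7, Nr2f6, Dll4, Hey1 and Aplnr fall outside this rule. The members and lists were chosen with earlier results of these data known. Exon lengths came from GENCODE M21 and gene positions and promoters from RefSeq GRCm38.p6, the same build as mm10. Promoters matched 8 of the 10 members. On simulated counts for this comparison over 13540 genes, 34 of 100 genes changed 2-fold and 64 of 100 changed 4-fold were recovered, with 5 false calls of 103. No pair of replicate libraries was equal within sampling noise (lowest chi-square 28.9 per degree of freedom). Alternatives used other scalings, filters, DESeq2 1.42.0, limma 3.58.1 voom, a replicate block, covariates and left-out libraries.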

Additional observations from a re-analysis of the deposited data

Results flagged for a closer look

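Sema3g in heterozygous 1 was at 16.0 CPM, against 24.7 to 25.4 CPM in the other 3 heterozygous libraries. Its gap to the nearest library was 0.926 of the range of the group, above Dixon's 95% critical value for 4 samples. In all, 20 groups of 4 libraries were examined, of which chance would flag about 1. Without heterozygous 1 the log2 fold change of Sema3g was -1.11 (edgeR adjusted p = 0.0555).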

How the results depend on the processing

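The count of called members was 3. It was 5 with DESeq2 or at an adjusted p under 0.1, 1 with the replicate number as a block, 0 without heterozygous 2 and knockout 1, and 0 with the neuronal score (neuron and radial glia markers) or the other-cell score as a covariate. Leaving out each library in turn gave 1 to 4. The edgeR counts of 0 came with 4, 6 and 2 members at an unadjusted p under 0.05. For all genes the block gave 868 calls, the neuronal score 108, the other-cell score 8 and DESeq2 2394 (of 14795), against 1293 (of 13540). Same-numbered libraries share only a number. Their deviations correlated at 0.06, 0.21, -0.05 and 0.02 for numbers 1 to 4, and not every library correlated best with its own number. With the block the adjusted p was 0.0274 for Gja5, 0.0879 for Gja4 and 0.102 for Nr2f2. Over 20 alternatives Gja5 was called in 17, Gja4 in 11, Nr2f2 in 6, Vwf in 3 and Sema3g in 2. Adjusted p ran from 2.38e-05 to 0.537, 0.00164 to 0.758, 0.00805 to 0.704, 0.00812 to 0.617 and 0.0119 to 0.392 for these 5 genes. The direction turned for Gja1 without heterozygous 1 (-0.0118, range to 0.30 with each library left out in turn) and for Bmx without heterozygous 2 (0.0499, range from -1.36). Neither was called, and no other member turned. With library size alone as the scaling the median over all genes (log2 fold change) was -0.15 against -0.03, and 539 genes were called higher and 725 lower, against 749 and 544. The causes were not tested. Fits with fewer libraries also test with fewer samples. Bmx held 1 to 57 counts per library, and whether depth or the spread between libraries sets its wide interval was not tested.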
